A study of Mus musculus with 8 samples.

Results

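The AP-1 transcription factor family was followed through its 7 Fos and Jun genes, which are Fos, Fosb, Fosl1, Fosl2, Jun, Junb and Jund. They were taken by symbol from the 52636 gene identifiers of the count table, where all 7 were found. RNA had been sequenced from mouse epiblast, the layer from which the body of the embryo arises, dissected on embryonic day 5.5. The embryos of every group had the genotype Sox2Cre;CRAFR26, that is, a Cre driven from Sox2, which acts in the epiblast, and an inducible cRAF construct that turns on the kinase ERK when tamoxifen is given. The 4 groups of 2 libraries were vehicle clone 4, 4OHT clone 4, vehicle clone 8 and 4OHT clone 8, where clone 4 and clone 8 are the 2 biological clones that the design names. The mouse line came from embryonic stem cells that carried the construct and were injected into morulae. The 4OHT groups were cultured for 4 h in IVC2 medium with 250 nM 4-hydroxytamoxifen (4OHT), and the vehicle groups received ethanol for 4 h, although their titles read 0 h. Each library was a pool of 10 epiblasts from which the extraembryonic layers had been dissected away. The labels do not say whether the pools share litters, so p-values measure only the spread between these libraries.

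AP-1 is a dimer. A Fos protein pairs with a Jun protein through a leucine zipper, and Jun proteins can also pair with each other. The dimer binds short DNA sites and acts on genes of proliferation, migration and matrix remodelling. Fos, Fosb, Jun and Junb are classical immediate early genes. Of these, Fos, Fosb and Junb are switched on through serum response factor and its ETS partners when ERK is active. Fosl1 and Fosl2 usually follow later, and Jund is broadly expressed. ERK also phosphorylates and stabilises Fos family proteins, a step that RNA does not record. Outside the epiblast, Fosl1 and Junb are known for roles in the trophoblast and placenta.

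The promoters of the members that moved together are shown because Fos, Fosl2 and Junb rose in 1 clone, as described below, and that of Jun because it did not pass the test there. They come from RefSeq on build GRCm38.p6, run from 250 bases before the annotated start to 50 bases after it, and are written 5′ to 3′ on the gene's strand with motif matches in capitals.
Fos promoter, chr12:85473640-85473939, plus strand: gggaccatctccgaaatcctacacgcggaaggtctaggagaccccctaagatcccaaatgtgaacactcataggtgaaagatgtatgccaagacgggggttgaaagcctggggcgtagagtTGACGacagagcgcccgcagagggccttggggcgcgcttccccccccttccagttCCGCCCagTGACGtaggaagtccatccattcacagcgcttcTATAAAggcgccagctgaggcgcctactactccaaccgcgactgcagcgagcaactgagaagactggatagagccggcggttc
Fosl2 promoter, chr5:32136222-32136521, plus strand: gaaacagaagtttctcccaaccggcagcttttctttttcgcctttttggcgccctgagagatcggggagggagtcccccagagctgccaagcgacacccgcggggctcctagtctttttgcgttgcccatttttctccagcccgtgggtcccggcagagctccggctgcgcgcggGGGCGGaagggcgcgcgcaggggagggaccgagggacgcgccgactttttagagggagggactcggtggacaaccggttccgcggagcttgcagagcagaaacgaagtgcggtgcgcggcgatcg
Junb promoter, chr8:84978699-84978998, minus strand: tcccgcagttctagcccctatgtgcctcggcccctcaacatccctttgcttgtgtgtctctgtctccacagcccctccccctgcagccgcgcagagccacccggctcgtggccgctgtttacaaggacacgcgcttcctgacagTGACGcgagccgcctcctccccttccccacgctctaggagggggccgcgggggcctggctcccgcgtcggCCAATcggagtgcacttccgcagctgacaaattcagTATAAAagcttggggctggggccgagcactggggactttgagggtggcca
Jun promoter, chr4:95052173-95052472, minus strand: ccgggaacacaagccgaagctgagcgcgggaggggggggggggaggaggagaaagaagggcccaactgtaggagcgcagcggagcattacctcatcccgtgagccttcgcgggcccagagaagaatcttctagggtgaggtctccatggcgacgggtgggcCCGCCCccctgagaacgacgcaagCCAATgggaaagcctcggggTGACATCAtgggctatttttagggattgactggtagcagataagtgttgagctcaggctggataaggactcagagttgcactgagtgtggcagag
Windows were matched for 6 of the 7 members, all but Fosl1. The AP-1 site TGANTCA was in 0 of these 6 windows, against 7.81% of 32851 windows of the table, and the CArG box, which serum response factor binds, was in 0 of 6 against 1.63%. The core TGACG, which lies inside the CRE motif TGACGTCA, was at positions -129 and -66 of Fos, at -106 of Junb and at -60 of Fosb, against 20.8% of windows. The Jun-type site TGACATCA was at position -45 of Jun, against 3.62%. All motifs were searched on both strands, within these windows only. Sites more than 250 bases before the start lie outside them. An absent match, that of the CArG box included, therefore does not show that a gene lacks the site. The GC box GGGCGG was in the windows of Fos, Fosl2, Jun and Fosb (35.7% of all windows). The TATA motif TATAAA was at position -33 of Fos and at position 1 of Junb (13.6%). The CCAAT box was in the windows of Jun and Junb (37.4%). Positions count from the RefSeq start, which lies upstream of the GENCODE gene for Junb and inside it for Fosl2. The ETS motif CCGGAA (14.9% of all windows) and the full CRE motif (1.79%) were in 0 of the 6. The shorter ETS core GGAA was not searched. The window of Jund, whose RefSeq start also lies upstream of the GENCODE gene, held 0 of the 9 motifs.

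Library depth differed between the conditions. Totals ranged from 33.3 M to 38.0 M counts (M stands for mega) without 4OHT and from 56.4 M to 72.5 M with it, so that depth and treatment cannot be told apart; counts thinned to the smallest total gave the same number of calls among the members in every comparison. Replicates differed beyond counting noise (chi-square divided by its degrees of freedom, 20.9 to 61.1). Mitochondrial genes took 1.35% and 1.19% of counts in the 4OHT libraries of clone 8 and 0.205% to 0.619% in the others. The 8 epiblast markers, Pou5f1, Nanog, Sox2 and Fgf5 among them, summed to 4501 to 5677 CPM (counts scaled to a TMM-adjusted library of 1 M), with none at 0. Dnmt3b was the largest part of the sum, at 2409 to 3188 CPM. Nanog stood at 20.45 to 80.94 CPM and Sox2 at 10.13 to 32.67 CPM. The sums did not overlap between conditions, at 5258 to 5677 CPM in vehicle and 4501 to 4980 CPM in 4OHT libraries. Of all tested genes, 5.58% were wholly lower in the 4OHT libraries. Among the markers named here, Pou5f1 was wholly lower too, while Nanog, Sox2, Fgf5 and Dnmt3b overlapped.

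Levels of the members were first compared with each other as CPM per kb of exonic length, since longer transcripts collect more reads. Junb stood highest in every group, at 19.2 and 37.1 CPM per kb in the libraries of vehicle clone 4, 13.8 and 14.7 in vehicle clone 8, 26.0 and 36.0 in 4OHT clone 4, and 27.9 and 53.9 in 4OHT clone 8. In vehicle clone 4 it was followed by Fosl1 at 11.1 and 16.1, then by Fos and Jun, whose ranges overlapped. In vehicle clone 8 the order was another one: Jun at 4.81 and 4.84 and Jund at 3.09 and 4.13 CPM per kb stood above Fosl1 and Fos, which overlapped between 1.73 and 2.96. Fosl2 stayed at 0.213 to 1.62 CPM per kb in all libraries. Fosb was lowest in every group, at no more than 0.0557 CPM per kb, which rests on 1 to 19 counts a library.

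Summed per kb, the Jun genes exceeded the Fos genes in every library. The ratio was 6.53 and 3.63 in the vehicle libraries of clone 8 and 1.46 to 2.85 in the other 6 libraries. The sum of the 4 Fos genes was 3.48 and 6.23 CPM per kb in vehicle clone 8, against 14.1 to 31.1 elsewhere. Junb made up 41.4% to 61.4% of the family's CPM per kb. Fosl1 made up 6.58% and 10.3% in vehicle clone 8 and 8.20% to 24.3% in the others. Vehicle clone 8 therefore had the least Fos family RNA, and Jund took 15.7% and 10.7% of the family there but at most 1.81% in the other libraries. The shares of Jund and Fosl1 are uncertain. Opposite-strand genes share 52.6% and 57.2% of the exonic length of these members, and the use of strand in counting is not stated.

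**Figure D1:**
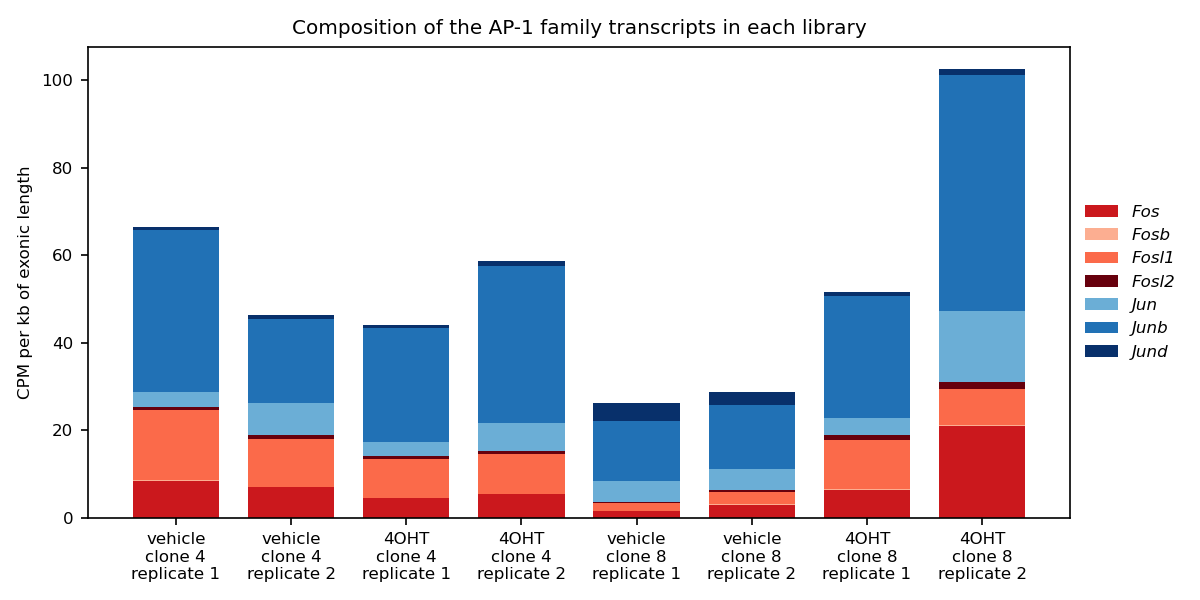
Stacked bars give the level of each AP-1 member in CPM per kb of exonic length (y axis, from 0) in each of the 8 libraries (x axis). The 2 bars of vehicle clone 8 are the lowest, and Junb is the largest part of every bar.

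Within clone 8, members of both subfamilies changed after 4OHT. Of the 7 members, 5 were called by edgeR's quasi-likelihood test at an adjusted p under 0.05, where 16.6% of the 18321 tested genes were called. Fos, Fosl1, Fosl2 and Junb rose, against 8% of tested genes called higher, and Jund fell, against 8.6% called lower; the groups of Jund did not overlap, as was so for 28.3% of tested genes in that direction. Jun and Fosb did not pass. All 7 members passed the filter on low counts. The median log2 fold change of the members was 1.52, beside 0.07 for all tested genes. Because these are bulk samples, fewer cells of a type and less RNA per cell cannot be told apart.

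**Figure D2:**
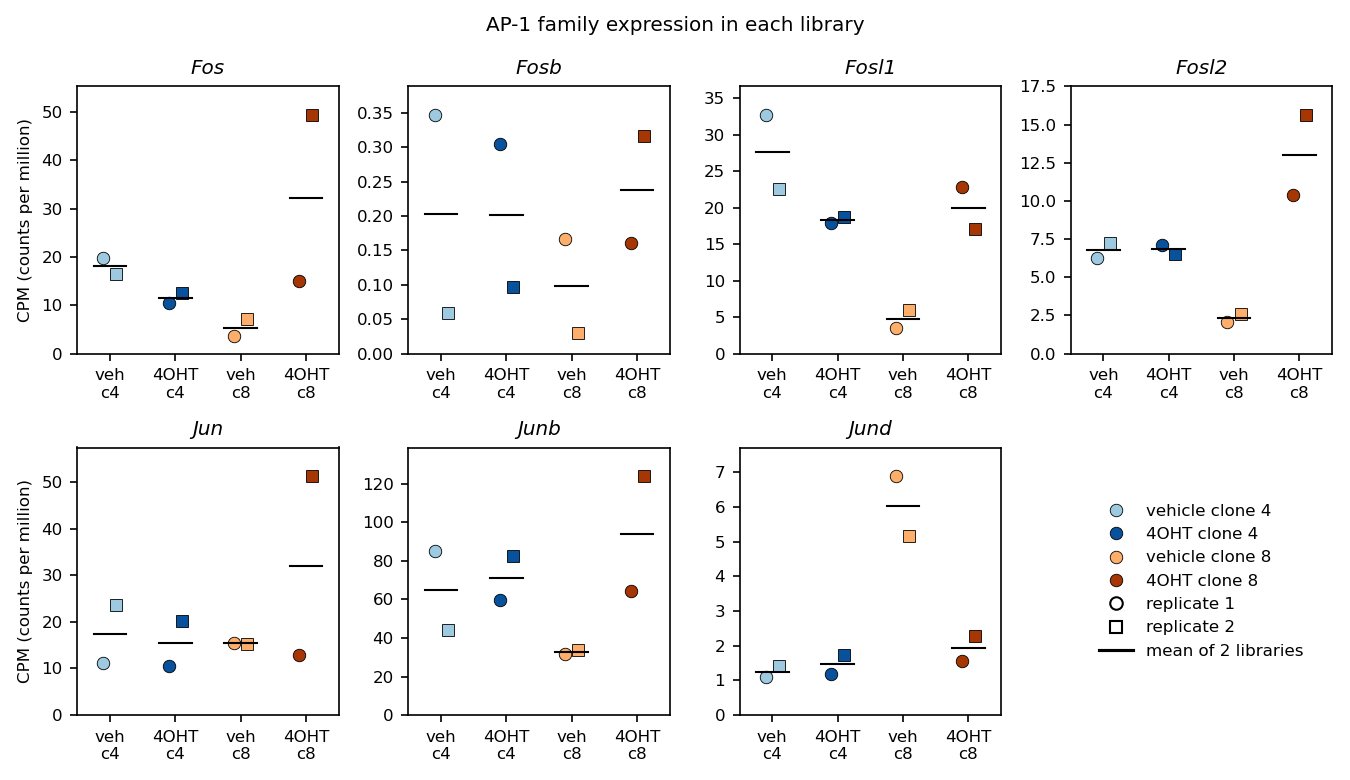
Each panel gives 1 AP-1 gene in CPM (y axis, linear, from 0) for the 4 groups (x axis; veh, vehicle; c4 and c8, clone 4 and clone 8). Points are the 2 libraries of a group and the line is their mean; Fosl2 is at 10.4 and 15.6 CPM in 4OHT clone 8 and at most 7.26 CPM in the other groups.

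Fos (ENSMUSG00000021250, GRCm38 chr12:85473890-85477273, plus strand), the immediate early partner of Jun, stood at 3.57 and 7.05 CPM in vehicle clone 8 and at 15.1 and 49.4 CPM in 4OHT clone 8. In clone 4 it stood at 19.8 and 16.4 CPM in vehicle and 10.5 and 12.5 CPM after 4OHT. The groups did not overlap in either clone, but the 4OHT libraries were the higher ones in clone 8 and the lower ones in clone 4. On the log2 scale the change was 2.61 (SE 0.52) in clone 8, with an adjusted p of 0.0148 in edgeR, and -0.66 (SE 0.49) in clone 4, with an adjusted p of 0.75. The second 4OHT library of clone 8 was far above the first. Without it the change in clone 8 was 1.50, with an edgeR adjusted p of 0.0278. The call was lost without vehicle clone 8 replicate 1 (2.18, adjusted p 0.157).

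Fosb (ENSMUSG00000003545, chr7:19302696-19310051, minus strand), a second immediate early member, was near the limit of detection. Its CPM were 0.348 and 0.0595 in vehicle clone 4, 0.305 and 0.0973 in 4OHT clone 4, 0.167 and 0.0301 in vehicle clone 8, and 0.160 and 0.317 in 4OHT clone 8. The groups overlapped in each clone. A log2 fold change of 1.24 (SE 1.20) in clone 8 and -0.05 (SE 1.13) in clone 4 did not pass the test, with edgeR adjusted p-values of 0.51 and 0.996. At so few counts these standard errors exceed 1 on the log2 scale.

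Fosl1 (ENSMUSG00000024912, chr19:5447547-5455946, plus strand), which encodes Fra-1, stood at 3.51 and 6.03 CPM in vehicle clone 8 and at 22.9 and 17.1 CPM in 4OHT clone 8. In clone 4 it stood at 32.8 and 22.6 CPM in vehicle and at 17.9 and 18.8 CPM after 4OHT. The groups were apart in both clones, again in opposite directions, and the 4 treated libraries lay within 17.1 to 22.9 CPM. The log2 fold change was 2.07 (SE 0.30, edgeR adjusted p 0.00852) in clone 8 and -0.59 (SE 0.28, adjusted p 0.55) in clone 4. The call was lost without vehicle clone 8 replicate 1 (1.70, adjusted p 0.0789). In GENCODE M21, 57.2% of the exonic length of Fosl1 is shared with Ccdc85b on the opposite strand, and whether reads there were counted is not stated. Ccdc85b stood at 12.0 to 19.1 CPM in vehicle and 13.3 to 16.6 CPM in 4OHT libraries, and its change in clone 8 was -0.31 (edgeR adjusted p 0.348).

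Fosl2 (ENSMUSG00000029135, chr5:32135801-32157842, plus strand), which encodes Fra-2, had the lowest p-value of the family in clone 8. It stood at 2.06 and 2.56 CPM in vehicle clone 8 and at 10.4 and 15.6 CPM in 4OHT clone 8. In clone 4 the levels were 6.29 and 7.26 CPM in vehicle and 7.14 and 6.53 CPM after 4OHT, so that these overlapped. The clone 8 treated libraries were above every other library, those of vehicle clone 4 included. The log2 fold change was 2.49 (SE 0.28, edgeR adjusted p 0.00699) in clone 8 and 0.01 (SE 0.26, adjusted p 0.995) in clone 4. Only 16 of the tested genes had a lower p-value in clone 8. The call was lost without vehicle clone 8 replicate 1 (log2 fold change 2.32, adjusted p 0.0747).

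Jun (ENSMUSG00000052684, chr4:95049034-95052222, minus strand), the founding Jun member, did not pass the test in either clone. It stood at 15.4 and 15.3 CPM in vehicle clone 8 and at 12.8 and 51.3 CPM in 4OHT clone 8. In clone 4 it stood at 11.2 and 23.7 CPM in vehicle and 10.6 and 20.2 CPM after 4OHT. The high value in 4OHT clone 8 belongs to the library in which Fos was also highest, and the other treated library lay below both vehicle libraries. The log2 fold change of 1.06 (SE 0.59, edgeR adjusted p 0.24) in clone 8 became -0.27 without 4OHT clone 8 replicate 2 (adjusted p 0.708) and 1.74 without replicate 1 (adjusted p 0.0251). The clone 4 value was -0.18 (SE 0.58, adjusted p 0.96).

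Junb (ENSMUSG00000052837, chr8:84974484-84978718, minus strand), the most abundant member, stood at 31.7 and 33.8 CPM in vehicle clone 8 and 64.3 and 124 CPM in 4OHT clone 8. In clone 4 it stood at 85.3 and 44.1 CPM in vehicle and 59.9 and 82.7 CPM after 4OHT. The groups were apart in clone 8 and overlapped in clone 4. On the log2 scale the change was 1.52 (SE 0.36, edgeR adjusted p 0.0235) in clone 8 and 0.14 (SE 0.35, adjusted p 0.944) in clone 4. The call in clone 8 was lost without vehicle clone 8 replicate 1 (1.46, adjusted p 0.194), without vehicle clone 8 replicate 2 (1.54, adjusted p 0.0966) and without 4OHT clone 8 replicate 2 (0.97, adjusted p 0.076). Junb shares 7.5% of its exonic length with Prdx2 on the opposite strand, an abundant gene that fell in clone 8 (log2 fold change -0.88, adjusted p 0.00933).

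Jund (ENSMUSG00000071076, chr8:70698949-70700616, plus strand), which often opposes growth in other cells, was the member that fell. It stood at 6.88 and 5.15 CPM in vehicle clone 8, 1.56 and 2.29 CPM in 4OHT clone 8, 1.10 and 1.40 CPM in vehicle clone 4, and 1.18 and 1.74 CPM in 4OHT clone 4. Vehicle clone 8 was the group that stood apart, above all 6 other libraries. How many of all tested genes had this pattern was not counted. The log2 fold change was -1.65 (SE 0.36, edgeR adjusted p 0.0194) in clone 8, which is 3.13-fold lower, and 0.23 (SE 0.37, adjusted p 0.903) in clone 4. This call, too, was lost without vehicle clone 8 replicate 1 (-1.44, adjusted p 0.16). These levels rest on 41 to 247 counts. The antisense gene Gm11175 covers 52.6% of the exonic length of Jund in GENCODE M21 and is listed at 0 counts in every library, and since the use of strand in counting is not stated, the level of Jund is uncertain.

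In clone 4, 0 of the 7 members were called by edgeR, where 0.0382% of tested genes were called. At an unadjusted p under 0.05 there were 0, against 9.9% of tested genes, and DESeq2 called 0 of the 6 members to which it gave an adjusted p. The median log2 fold change was -0.05, beside -0.01 for all tested genes. Fos and Fosl1 were the members whose groups did not overlap, both lower after 4OHT, a pattern that 23.8% of tested genes had. In clone 8 the corresponding pattern, higher after 4OHT, held for Fos, Fosl1, Fosl2 and Junb, and for 31.7% of tested genes. The standard errors in clone 4 were 0.35 to 0.58 for Fos, Jun and Junb, so that their missing calls do not show that these genes held their level.

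**Figure D3:**
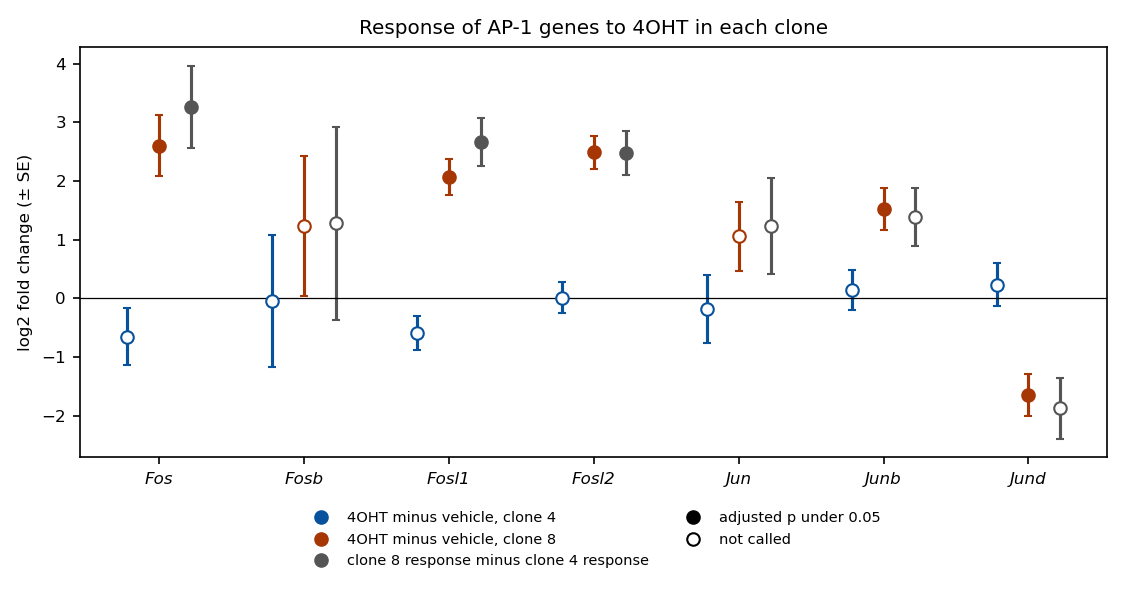
Points give the log2 fold change (y axis) of each member (x axis) after 4OHT in clone 4 (blue) and clone 8 (brown) and the difference of the 2 responses (grey), with bars of 1 SE from the quasi-likelihood fit. Filled points passed an adjusted p under 0.05; the blue points are all open and lie between -0.66 and 0.23.

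The difference of the responses was then tested directly. Fosl2, Fosl1 and Fos responded differently in the clones, 3 of 7 members, where 2.83% of tested genes were called in either direction and 1.08% with the higher response in clone 8. The response was higher in clone 8 by 2.48 for Fosl2 (SE 0.38, edgeR adjusted p 0.0262), by 2.66 for Fosl1 (SE 0.41, adjusted p 0.0262) and by 3.26 for Fos (SE 0.71, adjusted p 0.0476) on the log2 scale. Junb, at 1.38 (SE 0.50, adjusted p 0.149), and Jund, at -1.88 (SE 0.52, adjusted p 0.0835), did not pass. Neither did Jun or Fosb, with edgeR adjusted p-values of 0.403 and 0.678. None of the 3 calls was left in the fits without vehicle clone 4 replicate 1, vehicle clone 4 replicate 2, vehicle clone 8 replicate 1, 4OHT clone 4 replicate 1 or 4OHT clone 4 replicate 2, where the adjusted p-values of these genes were 0.0621 to 0.202. Without vehicle clone 8 replicate 2, Fosl1 (adjusted p 0.0424) and Fosl2 (0.048) were called and Fos (0.063) was not. DESeq2 called 5 members, Junb (adjusted p 0.026) and Jund (0.0237) as well. The share of all genes called by DESeq2 was not computed.

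The vehicle libraries of the clones differed from each other in several members. This comparison shares its clone 8 vehicle libraries with the response in clone 8, so the values are set side by side and one does not support the other. Against vehicle clone 4, vehicle clone 8 was lower in Fosl1 by 2.54 (log2 difference -2.54, SE 0.31, edgeR adjusted p 0.00905) and in Fosl2 by 1.55 (-1.55, SE 0.28, adjusted p 0.0224), and higher in Jund (2.27, SE 0.38, adjusted p 0.0207). That is 3 of 7 members, where 8.37% of tested genes were called, 4.06% higher and 4.31% lower in clone 8. Fos, at -1.77 (SE 0.51, adjusted p 0.0628), and Junb, at -0.98 (SE 0.35, adjusted p 0.118), did not pass. Both vehicle libraries of clone 8 were below both of clone 4 for Fos, Fosl1, Fosl2 and Junb, as for 29.2% of tested genes, and above them for Jund, as for 29.7%. Jun did not pass either, at -0.18 (SE 0.58, adjusted p 0.895), with a range in vehicle clone 4 that held both values of clone 8. Without vehicle clone 8 replicate 1 or vehicle clone 4 replicate 1, 0 members were called, without vehicle clone 4 replicate 2, 1, and without either 4OHT library of clone 8, 5.

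Between the treated libraries, a comparison chosen after the values were seen, 0 members were called by edgeR, where 0.202% of tested genes were called, 0.06% higher and 0.142% lower in clone 8. At an unadjusted p under 0.05 there were 2, Fos and Fosl2, against 18% of tested genes, and DESeq2 called 1, Fosl2 (adjusted p 0.033). Without 4OHT clone 8 replicate 1, edgeR called 1 member, Fos. The log2 difference of clone 8 against clone 4 was 0.12 (SE 0.28, edgeR adjusted p 0.868) for Fosl1 and 0.39 (SE 0.36, adjusted p 0.618) for Jund. It was 0.40 (SE 0.35, adjusted p 0.594) for Junb, 0.93 (SE 0.26, adjusted p 0.127) for Fosl2 and 1.49 (SE 0.49, adjusted p 0.172) for Fos. Fos and Fosl2 were higher in both 4OHT libraries of clone 8 than in both of clone 4, as were 23.7% of tested genes, and 0 members were lower in both, as were 24.2%. For Fosl1, Junb and Jund the clones overlapped after 4OHT and stood apart in vehicle. This joint pattern was not counted over all tested genes.

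With both clones together and clone as a term, 0 of 7 members were called by edgeR, where 0.00546% of tested genes were called. At an unadjusted p under 0.05 there were 2, against 16.9% of tested genes, Fosl2 at 1.23 on the log2 scale (SE 0.47, adjusted p 0.242) and Junb at 0.83 (SE 0.34, adjusted p 0.266). DESeq2 called 1, Fosl2, at an adjusted p of 0.0462, and edgeR called it too, at 0.0193, when the responses of the clones were averaged within the fit of 4 groups. Fos was 0.95 (SE 0.70), Fosl1 0.71 (SE 0.51), Fosb 0.57 (SE 0.84), Jun 0.44 (SE 0.46) and Jund -0.74 (SE 0.41) on the log2 scale. The median over members was 0.71, beside 0.04 for all tested genes. All 7 members overlapped between the 4 vehicle and the 4 treated libraries, where 3.42% of tested genes were wholly higher and 5.58% wholly lower after 4OHT.

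Markers of tissues next to the epiblast also differed between the groups. The 8 extraembryonic ectoderm markers had a summed level of 162 and 192 CPM in vehicle clone 8, 364 and 547 in vehicle clone 4, 514 and 530 in 4OHT clone 4, and 458 and 565 in 4OHT clone 8, with none at 0. In clone 8, 5 of the 8 rose after 4OHT (Elf5, Cdx2, Bmp4, Tfap2c and Esrrb), against 8% of tested genes. In vehicle, 6 of 8 were called lower in clone 8 than in clone 4, against 4.31%. The 5 trophoblast giant cell and placental markers summed to 12.8 and 15.4 CPM in vehicle clone 8 and 36.4 to 198 CPM elsewhere. Of these, Prl2c2 was at 0 in 7 libraries and Prl3d1, the placental lactogen of giant cells, in vehicle clone 8 replicate 2. Vehicle clone 8 was thus lowest for both lists, as for Fos, Fosl1, Fosl2 and Junb. How many of all tested genes were lowest in both libraries of vehicle clone 8 was not counted.

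The 12 visceral endoderm markers followed another order, at 337 and 584 CPM in vehicle clone 4, 1405 and 1447 in vehicle clone 8, 1603 and 1621 in 4OHT clone 4, and 318 and 848 in 4OHT clone 8, with none at 0. In clone 8, 4 of the 12 fell after 4OHT (Ttr, Apoa1, Amn and Hnf4a), against 8.6% of tested genes. For the difference of the responses 6 of 12 were called, all lower in clone 8, against 1.75%, and in vehicle 5 of 12 were higher in clone 8, against 4.06%. Of the 8 epiblast markers, Pou5f1, Sox2 and Utf1 fell in clone 8 after 4OHT, against 8.6% of tested genes, and 0 rose, against 8%. The median log2 fold change of the 8 was -0.41, and 0 were called in clone 4. Markers of maternal decidua, blood and immune cells summed to 9.28 to 26.4 CPM over 6 genes, of which Hbb-bs was at 0 in 4 libraries, Ptprc in 3 and Prl8a2 in 2. The part of these tissues in the changes of the AP-1 genes was not tested. Heat shock genes, which respond to handling, summed to 5584 CPM in replicate 1 and 4992 CPM in replicate 2 of 4OHT clone 8. In vehicle clone 8 the sums were 4620 and 5578 CPM. These sums are mostly Hspa8 and Hspd1. In 4OHT clone 8, Hspa8, Hsph1 and Hspe1 were lower in replicate 2 than in replicate 1, and the other listed heat shock genes were higher. The stress-inducible pair Hspa1a and Hspa1b, near-identical copies whose reads are hard to assign, was higher in 4OHT clone 8 replicate 2, the library with the highest Fos and Jun, than in replicate 1. Hspa1b stood at 1.37 CPM there and at 0.181 to 0.374 CPM in the other 7 libraries. Hspa1a stood at 1.99 CPM there and 0.770 CPM in replicate 1, but was highest in vehicle clone 4 replicate 2, at 2.89 CPM. Neither passed the test in clone 8 (edgeR adjusted p 0.166 and 0.672). Of 8 heat shock genes, Hsph1 rose in clone 8, against 8% of tested genes, and Hspe1 fell, against 8.6%. In clone 4 0 were called. The part of the heat shock genes was not tested either.

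**Figure D4:**
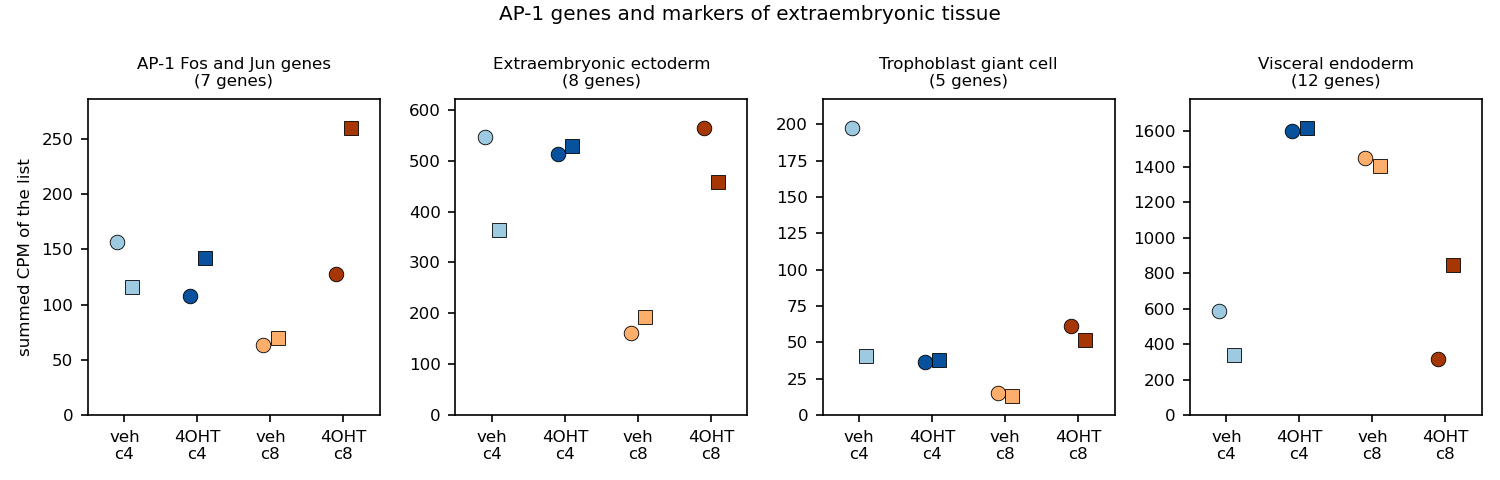
Each panel gives the summed CPM (y axis, linear, from 0) of the 7 AP-1 genes or of a marker list in each library, by group (x axis; c4 and c8, clone 4 and clone 8; circles, replicate 1; squares, replicate 2). Vehicle clone 8 is lowest for the AP-1 genes, at 63.4 and 70.0 CPM, and for both trophoblast lists, but not for visceral endoderm.

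Among other bZIP proteins that pair with AP-1, 11 of 12 listed genes were tested. In clone 8, Atf2 (log2 fold change 0.71, edgeR adjusted p 0.0147) and Atf7 (1.10, adjusted p 0.0131), which form dimers with Jun, rose, and Maf (-1.33, adjusted p 0.0343), a large Maf factor, fell. Of all tested genes, 8% were called higher and 8.6% lower there. The list's median was -0.18 beside 0.07 for all tested genes, and in clone 4 0 were called, with Maf at 2.33 (adjusted p 0.0658). Maf was also called for the difference of responses (-3.66, adjusted p 0.023). It stood at 1.34 and 1.10 CPM in vehicle clone 4, 4.74 and 7.56 CPM in 4OHT clone 4, 4.26 and 5.66 CPM in vehicle clone 8, and 1.59 and 2.37 CPM in 4OHT clone 8, high and low in the same groups as the visceral endoderm markers, whose part in it was not tested. Atf3, a stress-induced repressor that also binds AP-1 sites, did not pass in clone 8 (-0.26, adjusted p 0.806) and stood at 4.51 and 21.5 CPM in the 2 treated libraries.

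All 21 listed regulators upstream of Fos and Jun were tested. In clone 8, 1 rose and 3 fell, where 8% of all tested genes were called higher and 8.6% lower. The median log2 fold change was 0.15, and in clone 4 0 were called. Itch, a ubiquitin ligase for Jun proteins, rose by 0.72 (edgeR adjusted p 0.0291). Srf, serum response factor itself, fell (-0.94, adjusted p 0.0192), as did Mapk3, which encodes ERK1 (-0.87, adjusted p 0.00929), and Fbxw7, a ligase subunit that marks Jun for degradation (-0.79, adjusted p 0.0266). Srf stood at 31.2 and 23.6 CPM in vehicle clone 8, 14.8 and 13.8 CPM in 4OHT clone 8 and 9.47 to 12.0 CPM in the 4 libraries of clone 4. In this gene too, vehicle clone 8 was the group apart, in the direction of Jund, a pattern not counted over all tested genes. Mapk3 was called for the difference of the responses (-0.99, adjusted p 0.0399).

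Of 18 textbook AP-1 target genes, 14 were tested; Mmp13, a collagenase, was at 0 in all 8 libraries. In clone 8, 2 rose and 1 fell, where 8% of all tested genes were called higher and 8.6% lower. The median log2 fold change was 0.58 beside 0.07 for all tested genes, and in clone 4 the median was -0.26 with 0 called. Plaur, the urokinase receptor, rose by 1.58 (SE 0.18, edgeR adjusted p 0.00699) in clone 8 and not in clone 4 (-0.18, SE 0.18), and the difference of 1.75 passed the test (adjusted p 0.0232). Its levels were 16.1 and 16.9 CPM in vehicle clone 8, 47.9 and 50.4 CPM in 4OHT clone 8, 51.3 and 43.6 CPM in vehicle clone 4, and 35.8 and 48.0 CPM in 4OHT clone 4. As for Fosl1, both vehicle clone 8 libraries were below all the others, a pattern not counted over all tested genes. Ccnd1, which encodes cyclin D1, fell (-0.74, adjusted p 0.02).

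Across the 8 libraries, members varied together to different degrees. The Pearson correlation of log2 CPM was 0.91 between Fos and Fosl2, 0.87 between Fos and Junb, 0.80 between Fosl1 and Fosl2 and 0.01 between Fosl1 and Jun. Jund went opposite to Fosl1 (r = -0.96). These are descriptions over 8 points that share condition, clone and depth. Among 9159 or 9160 genes above the median level, the closest match was Naif1 for Fos (r = 0.98), Tubgcp3 for Fosl1 (0.99), Dmtf1 for Fosl2 (0.98), Foxo3 for Jun (0.98), Flnc for Junb (0.97) and Diaph1 for Jund (0.98). For Fosb, with at most 19 counts a library, the closest match, Rbl1, still reached 0.96.

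The clone 8 responses were last recomputed with each library left out. A fit without a library of clone 4 keeps all 4 libraries of clone 8. It acts on these responses mainly through the shared spread. The fits without a library of clone 8 are therefore the stricter ones, and they leave 1 library in a group. Fos, Fosl1, Fosl2 and Jund kept their call in 7 of the 8 fits and lost it without vehicle clone 8 replicate 1, where 0 members were called. Junb kept it in 5 of 8. In a fit of the 4 libraries of clone 8 alone 0 members were called, at edgeR adjusted p-values of 0.0578 to 0.0636 for the 5 genes, with log2 fold changes of 2.58 for Fos, 2.04 for Fosl1, 2.47 for Fosl2, 1.50 for Junb and -1.67 for Jund.

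**Figure D5:**
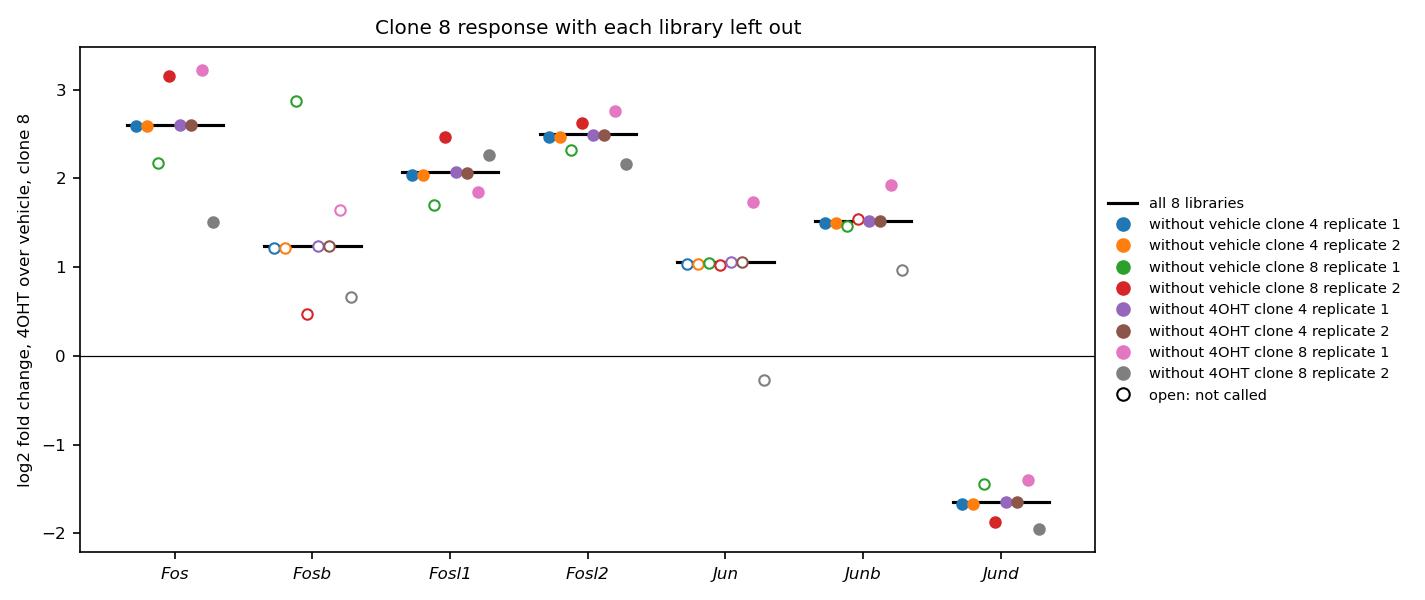
Points give each member's log2 fold change in clone 8 (y axis) when 1 of the 8 libraries, shown by colour, is left out; filled points passed an adjusted p under 0.05 and black lines are the values with all libraries. The 4 genes that rose lie above 0 and Jund below 0 in all 8 fits, while Jun spans -0.27 to 1.74.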

How the data were processed

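The file the authors deposited holds unnormalized counts, as whole numbers, for every Ensembl gene in each of the 8 libraries. The submitters' processing notes name bcl2fastq 2.19.1, STAR 2.5.3a and build mm10; the counting program, annotation and use of strand are not given in the sources used here, so overlapping and antisense genes are uncertain. Libraries were made from 7 ng of RNA with a low-input kit, per the labels' protocols. Symbols matched 52403 of 52636 identifiers. Exonic lengths and positions came from GENCODE M21 (GRCm38).

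Counts were tested with edgeR 4.0.16 in R 4.3.3: filterByExpr over the 4 groups (minimum count 10, 18321 genes kept), TMM scaling, estimateDisp, glmQLFit and glmQLFTest, with Benjamini-Hochberg adjustment over all tested genes and calls at an adjusted p under 0.05. Responses within clones, their difference and the clone comparisons came from 1 fit of the 4 groups, and the response in both clones from a fit with clone as an additive term. SE is the log2 fold change divided by the square root of F; CPM are counts per 1 M (mega) of TMM-scaled library size, log2 CPM were computed with 2 as prior count. The fit was tested on simulated data. Alternatives were RLE factors, library totals, other filters, thinned counts, DESeq2 1.42.0, a replicate block, other models and leaving out each library; the legacy option of glmQLFit was added after seeing the data.

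All members are named whatever their values. Of the other lists, called genes could be named, at most the 8 lowest p-values a list; Atf3, Mmp13, Hspa1a, Hspa1b, Hspa8 and Hspd1 fall outside that rule and were chosen after their values were seen. 1 gene of the target list is not reported here by name. The members and lists were chosen with earlier results of these data known.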

Additional observations from a re-analysis of the deposited data

Results flagged for a closer look

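In 4OHT clone 8 replicate 2, Fos stood at 49.4 CPM, while the remaining 3 treated libraries lay at 10.5 to 15.1 CPM. Of 14 sets of 4 libraries examined (each member in vehicle and in 4OHT), this was the only one with a library so far from the rest, where chance would give about 0.7 (1 in 20). That library also had the highest Jun (51.3 CPM) and Junb (124 CPM), but not the highest Fosl1 (17.1 CPM, the lowest of the treated libraries).

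The response to 4OHT differed between the clones, by the test of the difference itself, for Fosl2 (clone 8 higher by 2.48 on the log2 scale), Fosl1 (2.66) and Fos (3.26). The vehicle libraries of clone 8 were the lowest of all 8 for each of these genes. They are part of the tested difference, so their level is not a separate observation. How many of all tested genes had this pattern was not counted. In clone 4 the treated libraries were below the vehicle libraries for Fos and Fosl1 and overlapped with them for Fosl2.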

How the results depend on the processing

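Of 674 recomputed log2 fold changes of the members, 589 kept their direction and their side of the threshold, 36 lost a call, 27 gained one and 22 changed sign; none of the 22 belonged to a call. RLE factors, library totals, thinned counts and the legacy option left the number of calls in each comparison as it was.

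The count of members called ran from 0 to 6 over the 8 fits that left out 1 library in clone 8 (5 with all), 0 to 4 for the difference between clones (3), 0 to 5 for the clones in vehicle (3), 0 to 1 for the clones in 4OHT (0) and stayed at 0 in clone 4 and in both clones. In clone 8 alone it was 0, with fewer samples to estimate the spread. Without the expression filter it was 6 for the difference, 4 in both clones, 5 in vehicle and 2 in 4OHT, and the cause was not tested. With DESeq2 it was 5, 1, 5 and 1 in the same order, the cause not tested. The mean of the within-clone responses called 1 in both clones. For DESeq2 and the other alternative fits the share of all genes called was not computed, so none stands beside these counts.

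Over the fits that left out 1 library, these log2 fold changes, none of them called with all libraries, crossed 0. In clone 4 Fosb ran from -1.06 to 1.71, Fosl2 from -0.085 to 0.12, Jun from -0.72 to 0.46, Junb from -0.26 to 0.70 and Jund from -0.075 to 0.48. Jun ran from -0.27 to 1.74 in clone 8, -0.093 to 1.91 for the difference, -0.21 to 0.81 in both clones, -0.61 to 0.47 in vehicle and -0.27 to 1.73 in 4OHT. Its lowest values in clone 8, for the difference, in both clones and in 4OHT came without 4OHT clone 8 replicate 2. Fosb ran from -0.49 to 2.90 for the difference, -2.67 to 0.73 in vehicle and -0.36 to 1.27 in 4OHT, where Fosl1 ran from -0.11 to 0.31 and Junb from -0.16 to 0.80. In clone 4 Fosb was also 0.084 in thinned counts and 0.16 with the replicate block.

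Same-numbered libraries did not deviate together (correlation 0.095 in clone 4 and -0.01 in clone 8), so the numbers were not taken as pairs. With the replicate block 5 members were called in clone 8, 3 for the difference and 0 in clone 4 and in both clones. With 1 to 19 counts, depth limits Fosb, which was not tested at 10 counts in every library, in clone 8 alone, or where DESeq2 gave no adjusted p.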
